A study of Mus musculus with 6 samples.

Results

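The genes described here are 9 that are enriched in excitatory neurons of the cerebral cortex, namely Slc17a7, Tbr1, Neurod1, Neurod2, Neurod6, Emx1, Fezf2, Nrn1 and Lamp5. They were taken by their symbol from the 35415 genes of the deposited tables, and all 9 were present and had enough counts to be tested. The list was drawn up because these genes stood high in a single library, olanzapine pool 1. The level of that pool against the other 5 is therefore a description of how the list was chosen and was not tested. The study itself had placed 8 of the 9, all but Neurod1, in the module it calls MEbrown. That module was built from the FPKM of these same libraries, olanzapine pool 1 included, so the placement is not independent of that pool.

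The study asked how long-term olanzapine, an atypical antipsychotic, changes gene expression in the lateral septum (LS), a forebrain region wired to the hypothalamus. Wild-type female C57BL/6 mice, about 8 weeks old on arrival and acclimated for 1 week, ate chow with olanzapine at 50 mg/kg of feed or plain maintenance chow for 12 weeks. The LS was dissected under a microscope, and tissue from 3 mice was pooled for each RNA-seq library, with 3 olanzapine pools and 3 control pools. Each pool is thus an average over mice, and how much individual mice vary cannot be read from these data. Read counts per gene summed to between 38208153 and 39868872 per pool, so that raw counts of different pools can be set nearly side by side.

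Excitatory neurons of the cortex and hippocampus arise from the pallium, the dorsal part of the embryonic telencephalon, and release glutamate. Septal projection neurons arise below the pallium and are largely GABAergic. The glutamate transporter that fills synaptic vesicles is VGLUT1, encoded by Slc17a7, in most cortical and hippocampal neurons, and VGLUT2, encoded by Slc17a6, in the thalamus, the hypothalamus and the small glutamatergic population of the medial septum. Emx1 marks the pallial lineage, Tbr1 and Fezf2 are transcription factors of deep-layer neurons, and Neurod1, Neurod2 and Neurod6 are bHLH factors that bind E-box DNA while such neurons mature. Nrn1 encodes neuritin, a surface protein that promotes neurite growth and depends on activity, and Lamp5 encodes a membrane protein found in cortical projection neurons and in a class of cortical interneurons.

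In GENCODE for GRCm38, the assembly also called mm10 that the submitters name, all 9 are protein-coding genes. Slc17a7 lies on the plus strand at chr7:45163949-45176142, Neurod2 on the minus strand at chr11:98325415-98329648 and Neurod6 on the minus strand at chr6:55677822-55681263. Tbr1 (chr2:61802930-61814114), Neurod1 (chr2:79452521-79456751) and Lamp5 (chr2:136052239-136069917) share a chromosome but are far apart. Emx1 lies at chr6:85187438-85204462, Fezf2 at chr14:12342094-12348189 and Nrn1 at chr13:36725361-36735131. Neurod1 is overlapped by Cerkl and by the antisense gene Gm26755, Nrn1 by the antisense genes Fars2 and Gm30177, and Slc17a7 by the small RNA gene Mir7055. Whether the counting used strand is not given in the sources used here, so reads of Neurod1 and Nrn1 cannot be told apart from those of their antisense partners.

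The 3 members that stood highest in olanzapine pool 1 relative to the other pools are Slc17a7, Neurod2 and Neurod6, and the 250 bases before their RefSeq start (GRCm38.p6) are shown to let the regions upstream of genes that moved together be compared. Each is written 5′ to 3′ on the strand of the gene, with capitals for the E-box CANNTG. They cover chr7:45163671-45163920 on the plus strand, chr11:98329646-98329895 on the minus strand and chr6:55681264-55681513 on the minus strand.
Slc17a7: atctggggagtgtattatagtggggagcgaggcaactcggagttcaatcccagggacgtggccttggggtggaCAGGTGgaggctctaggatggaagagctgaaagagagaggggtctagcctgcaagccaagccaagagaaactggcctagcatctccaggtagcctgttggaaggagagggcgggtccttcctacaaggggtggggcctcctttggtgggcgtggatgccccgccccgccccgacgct
Neurod2: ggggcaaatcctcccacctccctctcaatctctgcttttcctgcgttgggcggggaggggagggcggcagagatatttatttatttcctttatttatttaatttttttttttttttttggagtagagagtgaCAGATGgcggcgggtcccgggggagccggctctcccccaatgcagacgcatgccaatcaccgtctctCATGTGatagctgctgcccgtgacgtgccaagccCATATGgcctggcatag
Neurod6: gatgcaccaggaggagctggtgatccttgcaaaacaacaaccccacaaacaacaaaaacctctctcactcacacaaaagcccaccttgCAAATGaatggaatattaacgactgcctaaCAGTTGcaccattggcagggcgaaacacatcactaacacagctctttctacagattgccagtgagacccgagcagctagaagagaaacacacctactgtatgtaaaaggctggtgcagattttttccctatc
Slc17a7 has 1 such E-box, Neurod2 has 3 and Neurod6 has 2. RefSeq upstream sequences matched 8 of the 9 genes, and 7 of the 8, all but Fezf2, hold CANNTG, a motif that reads the same on both strands and that 66.2% of all 32851 upstream sequences of this length hold. The form CAGATG, or its reverse complement CATCTG, is part of the CANNTG set and was found in 1 of the 8, Neurod2, against 14.4% of all. The matches are descriptions of the sequence only.

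Counts are given here in the order of pools 1, 2 and 3. Slc17a7 stood at 891, 1806 and 2171 counts among controls and at 24973, 832 and 415 under olanzapine. Olanzapine pool 1 thus stood alone, and olanzapine pools 2 and 3 lay below every control pool. Scaled to a common library size with TMM (CPM), pool 1 had 659 CPM against 31.1 ± 18.5 CPM (mean and SD of the other 5 pools), a ratio of 21.2 to their mean and 12.0 to the highest of them. Among the 14279 genes with a mean of at least 50 counts, that second ratio ranked Slc17a7 at place 6.

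The bHLH genes were less abundant. Neurod2 stood at 44, 77 and 182 counts among controls and at 1331, 15 and 20 under olanzapine. Neurod6, a marker of young and mature cortical projection neurons, stood at 36, 154 and 252 among controls and at 1871, 18 and 34 under olanzapine. In each, olanzapine pool 1 was the highest pool, control pool 3 came next, and olanzapine pools 2 and 3 were the lowest. The ratio of pool 1 to the mean of the other pools was 20.5 for Neurod2 and 19.7 for Neurod6 and rested in part on control pool 3. Without that pool it was 35.4 for Neurod2 and 32.1 for Neurod6. Neurod1, at 24, 38 and 43 counts among controls and 155, 41 and 20 under olanzapine, had the fewest counts of the 9 and a ratio of 4.85. Its olanzapine pools 2 and 3 lay within or just under the range of the controls.

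Among the regional transcription factors, Emx1 stood at 21, 15 and 52 counts among controls and at 247, 21 and 16 under olanzapine, a ratio of 10.2. Tbr1 stood at 730, 624 and 889 among controls and at 3266, 408 and 499 under olanzapine, a ratio of 5.37. Fezf2 stood at 217, 241 and 270 among controls and at 1368, 160 and 202 under olanzapine, a ratio of 6.51. Tbr1 and Fezf2 therefore had olanzapine pools 2 and 3 below all controls, while Emx1 had no such order. The surface proteins differed least. Nrn1 stood at 1195, 1290 and 1918 counts among controls and at 3907, 1302 and 855 under olanzapine, a ratio of 3.09, and Lamp5 stood at 1518, 2458 and 1732 among controls and at 5340, 2208 and 2533 under olanzapine, a ratio of 2.65. For Lamp5 the other 5 pools overlapped between the groups, and control pool 1 was the lowest.

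**Figure D1:**
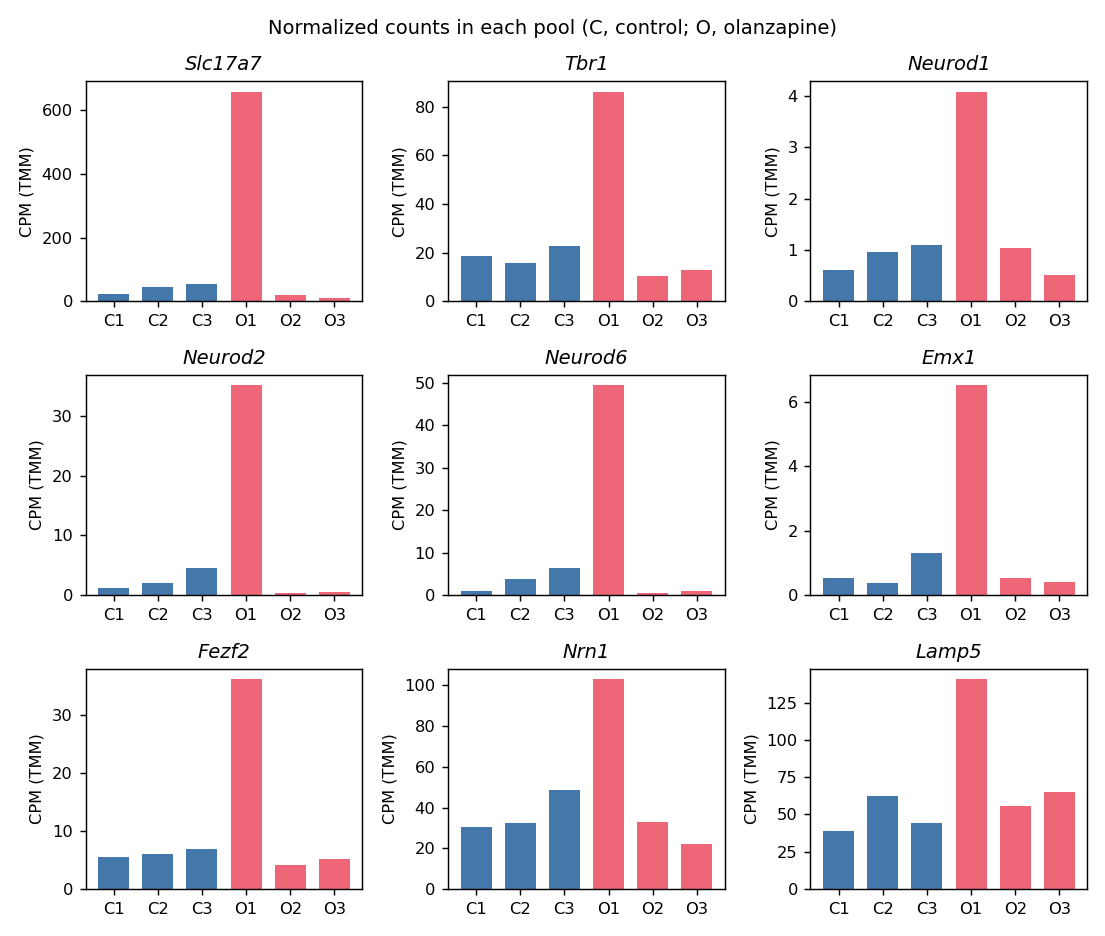
Bars give the TMM-normalized counts (CPM, y axis, starting at 0) of each of the 9 genes in control pools 1 to 3 (C1 to C3, blue) and olanzapine pools 1 to 3 (O1 to O3, red), each bar being 1 pool of 3 mice. O1 is the highest bar in all 9 panels, from 2.12 times (Nrn1) to 12.0 times (Slc17a7) the next pool.

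Olanzapine pool 1 was the highest of the 6 pools in 9 of 9 genes, as it was in 22.8% of the 17255 genes tested. It was at least 2 times the highest of the other pools in 9 of 9, against 1.11% of all genes tested. Since the list was chosen on this difference, nothing is read from either count. The same fold above the next pool was reached by 0.0522%, 0.0464% and 0.145% of genes in control pools 1 to 3 and by 0.116% and 0.162% in olanzapine pools 2 and 3. The median of the 9 ratios to the mean of the other pools was 6.51 and lay between 6.35 and 6.51 under 4 other scalings, FPKM included.

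**Figure D2:**
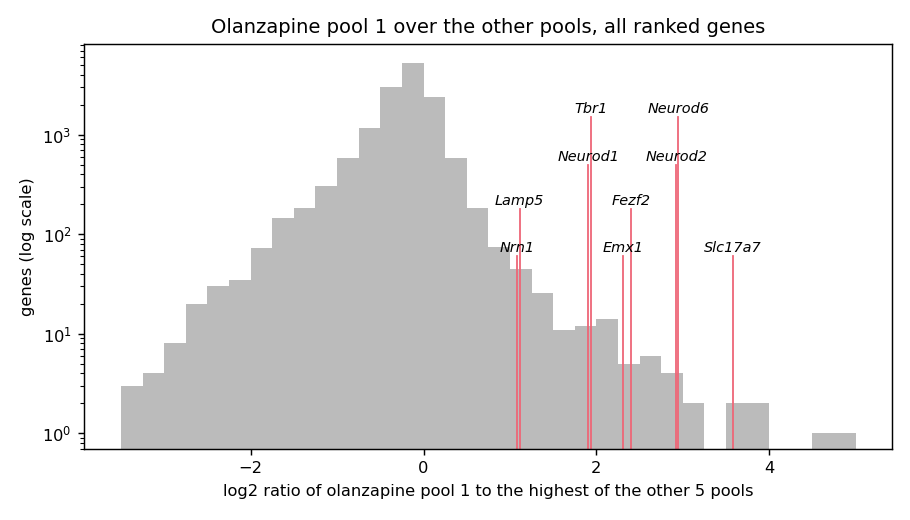
The histogram counts genes (y axis, log scale) by the log2 ratio of olanzapine pool 1 to the highest of the other 5 pools (x axis), over the 14279 genes averaging at least 50 counts, and red lines mark the 9 cortical genes. All 9 lie in the right tail, between place 6 (Slc17a7) and place 113 (Nrn1) of the ranking. The average includes olanzapine pool 1. Neurod1 (20 to 43 counts in the other pools) and Emx1 (15 to 52) reach it only through that pool, so their places follow from the pool that chose them.

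Levels of different genes were compared as FPKM, which the authors scaled by transcript length. In the 5 pools other than olanzapine pool 1, the level was highest for Lamp5 (19.5 ± 4.30 FPKM, mean ± SD, n = 5 pools) and Nrn1 (18.9 ± 5.47), which did not differ beyond their spread. Slc17a7 followed with 10.6 ± 6.27, lower than Nrn1 in each of the 5 pools, and Tbr1 with 2.84 ± 0.825, higher than Neurod6 in each of the 5. Neurod6 (1.16 ± 1.19), Fezf2 (0.829 ± 0.148), Emx1 (0.543 ± 0.331), Neurod2 (0.470 ± 0.476) and Neurod1 (0.339 ± 0.108) followed, and the ranges of 1 SD around the means of neighbours among these overlapped. In olanzapine pool 1 Slc17a7 came first, at 221 FPKM, before Nrn1 at 57.5, Lamp5 at 50.6, Neurod6 at 22.6, Tbr1 at 15.1, Neurod2 at 9.51, Emx1 at 5.48, Fezf2 at 5.32 and Neurod1 at 1.61. Slc17a7, Neurod2 and Neurod6 moved up in the order, Lamp5, Tbr1 and Fezf2 moved down, and Nrn1, Emx1 and Neurod1 kept their places.

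The balance of the vesicular transporters shifted in that pool from both sides. Slc17a6 stood at 3279, 3471 and 4398 counts among controls and at 1269, 2921 and 2010 under olanzapine, lowest in olanzapine pool 1. The FPKM ratio of Slc17a7 to Slc17a6 was 0.415, 0.795 and 0.754 in the control pools, 0.435 and 0.315 in olanzapine pools 2 and 3, and 30.1 in olanzapine pool 1. VGLUT2 thus was the more abundant transporter transcript in 5 of the 6 pools, and VGLUT1 in olanzapine pool 1. Against Slc32a1, the vesicular GABA transporter of inhibitory neurons, the FPKM ratio of Slc17a7 was between 0.0417 and 0.236 in the other 5 pools and 3.42 in olanzapine pool 1.

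The study's own comparison sets the 3 olanzapine pools against the 3 control pools. It includes the pool that chose the list, so the values describe and do not support a response of these genes to the drug. All 9 log2 fold changes were above 0, from 0.50 for Nrn1 to 2.48 for Slc17a7, with a median of 1.29, beside a median of 0.00389 over all genes tested. The standard errors were large, at 1.33 for Slc17a7, 1.47 for Neurod2 and 1.49 for Neurod6. With edgeR's quasi-likelihood test, adjusted after Benjamini-Hochberg, 0 of the 9 genes passed an adjusted p of 0.05, which 2.32% of genes tested did, and 1 of the 9, Lamp5, had an unadjusted p under 0.05, which 17.6% of genes tested had. limma called 0 of the 9. DESeq2 called 0 of the 6 to which it gave an adjusted p, and gave none to Slc17a7, Neurod2 and Emx1. The size of the fold change depended on the scale: limma on log2(FPKM + 1) gave 0.54 for Slc17a7, 0.52 for Neurod2 and 0.45 for Neurod6, and on log2(FPKM + 0.1) it gave 0.49, 0.16 and 0.093. Slc17a7 had 41.2 ± 16.6 CPM (SD, n = 3 pools) among controls and 230 ± 371 CPM (SD, n = 3) in the olanzapine group, an SD larger than the mean (adjusted p = 0.379, edgeR's quasi-likelihood test). Lamp5 had 48.3 ± 12.2 CPM against 87.3 ± 46.6 CPM, or 0.85 ± 0.34 (SE) as log2 fold change (adjusted p = 0.247 from the same test).

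The comparison of olanzapine pools 2 and 3 with the 3 control pools leaves out the pool whose high level put these genes on the list, although these 5 pools were what that pool was set against. Here 8 of the 9 log2 fold changes were below 0, all but that of Lamp5, and the median was -0.66, beside -0.00286 over the 17255 genes of the fit with all pools. Olanzapine pools 2 and 3 both lay below all 3 control pools in 5 of the 9, namely Slc17a7, Tbr1, Neurod2, Neurod6 and Fezf2, and both lay above in 0 of the 9, while 18.2% of all genes tested lay below and 19.5% above. The genes share their source pools and are not independent of each other.

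None of the 9 passed the threshold in that comparison by the main test. With edgeR's quasi-likelihood test, adjusted after Benjamini-Hochberg, 0 of 9 had an adjusted p under 0.05, against 2.87% of the 17687 genes tested without olanzapine pool 1, and 4 of 9 had an unadjusted p under 0.05, against 18.8% of those genes. DESeq2 called 2, Tbr1 (adjusted p = 0.00426) and Neurod2 (adjusted p = 0.00145), both lower in olanzapine pools 2 and 3, and limma called 0. Neurod2 had 2.56 CPM on average in the control group and 0.447 CPM in olanzapine pools 2 and 3, or -2.51 ± 0.62 (SE) as log2 fold change (adjusted p = 0.0755, edgeR's quasi-likelihood test). Neurod6 had 3.74 CPM against 0.665 CPM, or -2.49 ± 0.74 (SE) as log2 fold change (adjusted p = 0.117 from the same edgeR test). Both rest on low counts in olanzapine pools 2 and 3, 15 and 20 for Neurod2 and 18 and 34 for Neurod6. Smaller changes came from limma and depended on the offset, at -0.56 and -0.94 on log2(FPKM + 1) and -1.65 and -1.85 on log2(FPKM + 0.1). The edgeR changes rest on control pool 3 as well, without which they were -1.77 for Neurod2 and -1.85 for Neurod6.

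The log2 fold change of Slc17a7 was -1.38 ± 0.38 (SE) (adjusted p = 0.0999, edgeR's quasi-likelihood test), and that of Tbr1 was -0.72 ± 0.18 (SE) (adjusted p = 0.0725, the same edgeR test). Fezf2 (-0.42), Nrn1 (-0.44), Emx1 (-0.66), Neurod1 (-0.20) and Lamp5 (0.32) had adjusted p values between 0.288 and 0.876 in that edgeR fit. The number called changed when control pool 1 was left out. Without it, Slc17a7, Neurod2 and Neurod6 had adjusted p values of 0.0186, 0.0287 and 0.00980 from the edgeR test, 3 of 9 in all. Without control pool 2 or without control pool 3, 0 were called. With the replicate number as a block and control pool 1 kept, the edgeR test called the same 3 genes (adjusted p = 0.0174, 0.0254 and 0.00601). In control pool 1 these 3 genes were at their lowest among the controls.

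**Figure D3:**
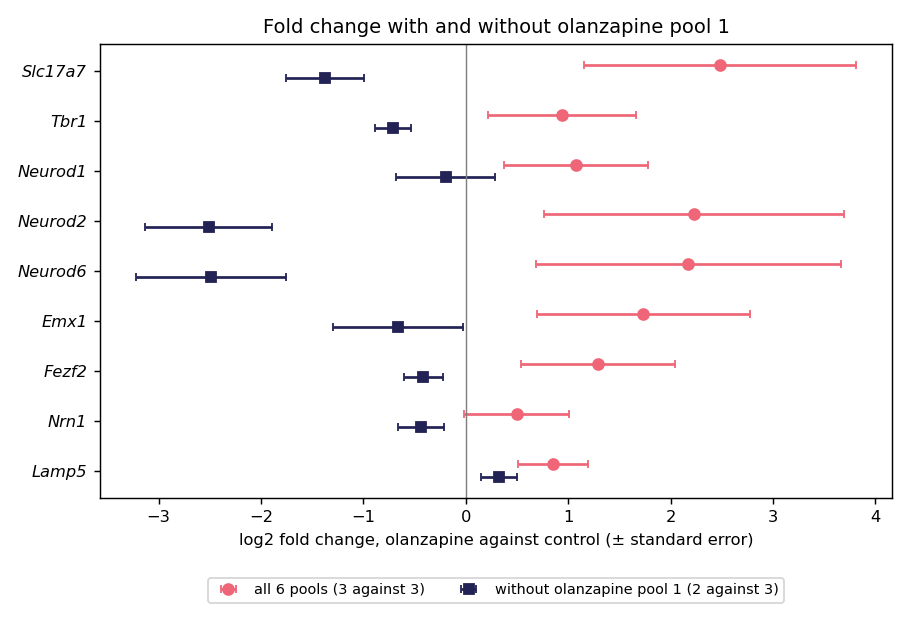
Points give the log2 fold change of olanzapine against control (x axis) from edgeR for each gene, with bars of 1 standard error, over all 6 pools (red circles) and without olanzapine pool 1 (dark squares). The red circles lie above 0 for all 9 genes, and 8 of the 9 dark squares, all but Lamp5, lie below 0.

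Removing a single pool therefore turned the sign of 8 of the 9 fold changes between the groups. Several marker lists moved in olanzapine pools 2 and 3 too. The summed level of 6 endothelial genes (Pecam1, Cldn5, Cdh5, Tek, Slco1a4 and Flt1) was 67.8 to 79.2 CPM in those pools, 120 to 143 CPM in the controls and 138 CPM in olanzapine pool 1. Of these 6 genes 4 were called lower and 0 higher without olanzapine pool 1 (edgeR, adjusted p under 0.05), where 1.11% of all genes tested were called lower. The sums of 4 further lists also lay below all controls in these pools. They were 3363 to 3937 CPM against 4150 to 4714 CPM for astrocytes and 421 to 436 against 477 to 562 CPM for the hippocampus. For subcortical glutamatergic neurons they were 235 to 254 against 281 to 329 CPM, and for the developmental pallial factors described below 207 to 230 against 249 to 271 CPM. In that order, log2 fold changes were below 0 for 6 of 7, 10 of 11, 5 of 5 and 4 of 6 genes. Of these genes, the astrocyte factor Sox9 (-0.46, adjusted p = 0.0436 by edgeR's quasi-likelihood test) and Eomes of the developmental list were called lower. The sum of the 9 cortical genes overlapped between these pools and the controls, at 118 to 127 CPM against 120 to 191 CPM. Striatal genes went the other way: their sum was 2999 and 3047 CPM in olanzapine pools 3 and 2 and 1539 to 2611 CPM in the controls. Without olanzapine pool 1 all 12 striatal log2 fold changes were above 0, with a median of 0.53, and 1 of the 12, Rgs9, was called higher (edgeR, adjusted p = 0.00668), where 1.76% of all genes tested were. The part of these lists in the result for the cortical genes was not tested. In bulk tissue, fewer cells of a type and less RNA per cell cannot be told apart.

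Other genes of pallial neurons were followed as 4 lists. They hold known markers but were drawn up with the high level of olanzapine pool 1 already known, so their counts are not independent of it, and the study's MEbrown holds 7 of 29 genes. Of the 28 that could be tested, all but Neurog2, olanzapine pool 1 was the highest pool in 17 (background 22.8%) and at least 2 times the next pool in 9 (background 1.11%). Against the mean of the other pools, the median ratio was 1.47 over the 28, well below that of the 9 cortical genes and above the 0.992 of all genes tested. The lists did not move as a block.

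For the 6 genes of the excitatory synapse and of signalling, olanzapine pool 1 was the highest pool in each, with a median ratio of 4.43 to the mean of the other pools. Slc30a3, the zinc transporter ZnT3 of VGLUT1 synaptic vesicles, stood at 93, 126 and 148 counts among controls and at 1747, 132 and 76 under olanzapine. Cck, a neuropeptide abundant in cortex, had 629, 1031 and 1415 against 7381, 1207 and 496. Camk2a, a kinase that many forebrain neurons outside the cortex also express, differed far less, with 61730 to 74590 counts in the controls and 85980 in olanzapine pool 1. Nrgn, which encodes the calmodulin-binding protein neurogranin, was higher in all olanzapine pools (11125 to 11668 counts in the controls, then 29354, 16374 and 17038), and without olanzapine pool 1 it rose by 0.55 on the log2 scale (adjusted p = 0.00560, edgeR's quasi-likelihood test). Nptx1, a synaptic pentraxin, was highest in olanzapine pool 1 with 10347 counts and lowest in olanzapine pools 2 and 3 with 3048 and 3706, and without olanzapine pool 1 it fell by 0.56 on the log2 scale (adjusted p = 0.0289, the same edgeR test).

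Layer markers split within each layer. In the upper-layer list, olanzapine pool 1 was the highest pool for 4 of 7 genes, at least 2 times the next for 2 of them, and the lowest for 2. Stard8 had 1050 counts there against 344 to 456 elsewhere, and Cux2, a factor of upper-layer neurons, had 2282 against 993 to 1485. Cux1 and Rorb were at their lowest there, with 2789 and 782 counts. In the deep-layer list that pool was the highest for 3 of 9 genes and the lowest for 1. Ccn2, a marker of the deepest cortical neurons, had 1023 counts in olanzapine pool 1 and 94 to 339 in the others, Rprm had 1336 against 659 to 798, and Etv1 had 2529 against 1842 to 2399. Bcl11b and Tle4, which striatal neurons also express (Bcl11b strongly), had 3468 and 2570 counts in that pool, inside the range of the other 5. Foxp2 had 1040, the lowest of the 6. The median ratio of olanzapine pool 1 to the mean of the other pools was 1.59 for the 7 upper-layer genes and 1.00 for the 9 deep-layer genes.

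In the list of developmental pallial factors, Mef2c had 12056 counts in olanzapine pool 1 and 3043 to 4490 elsewhere, and Zbtb18 had 7098 against 2684 to 3569. Eomes, the T-box relative of Tbr1, went the other way. It stood at 536, 424 and 456 counts among controls and at 165, 220 and 251 under olanzapine, without overlap, and fell by 1.14 on the log2 scale (adjusted p = 0.0221, edgeR's quasi-likelihood test), or by 1.00 without olanzapine pool 1 (adjusted p = 0.0195, the same edgeR test). It was the only 1 of the 28 tested pallial genes called over all 6 pools, where 1 was called lower and 0 higher, beside 0.493% lower and 1.83% higher among all genes tested. Without olanzapine pool 1, 2 were called lower (Eomes and Nptx1) and 1 higher (Nrgn), beside 1.11% and 1.76%.

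Markers of other tissues were set beside the cortical genes in each pool. The hippocampus list did not rise with them: its summed level was 477 CPM in olanzapine pool 1 and 421 to 562 CPM in the others, and of its 11 tested genes only C1ql3, a synaptic C1q-like protein that is also made in cortex, was at least 2 times the next pool there, with 3407 counts against 778 to 1448. Prox1 and Zbtb20 had their lowest counts in that pool, 727 and 4318. Subcortical glutamatergic markers were lower in olanzapine pool 1, at a summed 142 CPM against 235 to 329 CPM, with Gbx2, a thalamic factor, at 115 counts against 252 to 617. Among cortical interneuron genes, the peptide gene Vip had 705 counts against 63 to 129 and Cort had 90 against 3 to 18. Olanzapine pool 1 was the highest pool for 4 of these 8 genes, Npy (2113 counts against 824 to 1300) and Adarb2 (14.1 CPM against 10.4 to 13.9) included, and the lowest for 2, Ndnf (596 counts against 632 to 1053) and Reln (2401 against 2535 to 3297). Lhx6 and Pvalb lay inside the range of the other pools.

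The labelled tissue was checked on septal and GABAergic genes. The septal list (Trpc4, Dgkg, Zic1, Zic2, Crhr2, Nts, Sst, Esr1, Glp1r and Drd3) was detected in full in every pool, with 0 of 10 genes at 0 counts, and its summed level was 756 CPM in olanzapine pool 1 and 800 to 1196 CPM in the others. Of the 10, 6 were lowest in olanzapine pool 1 and 1, the peptide gene Sst, was highest there. Zic1, a transcription factor of septal neurons, stood at 16978, 13617 and 13194 counts among controls and at 7712, 10597 and 12654 under olanzapine. Of the 6 GABAergic genes (Gad1, Gad2, Slc32a1, Meis2, Dlx1 and Dlx6), all had their lowest level in olanzapine pool 1, and their sum was 1671 CPM there against 1955 to 2520 CPM. High cortical and low septal levels thus went together in that pool, and the part of either in the other was not tested.

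Striatal, choroid plexus and glial genes did not have the pool order of the cortical genes. The striatal sum was 1556 CPM in olanzapine pool 1, close to the 1539 CPM of control pool 1, with 2611 and 1950 CPM in control pools 2 and 3 and the values above in olanzapine pools 2 and 3. The choroid plexus sum ranged from 89.1 CPM in olanzapine pool 3 to 7740 CPM in control pool 3 and was 1214 CPM in olanzapine pool 1. Oligodendrocyte genes summed to 8187 CPM in olanzapine pool 1 and 8684 to 10986 CPM elsewhere, and microglial genes to 282 CPM against 292 to 327 CPM. Astrocyte genes summed to 3710 CPM in olanzapine pool 1, 3363 to 3937 CPM in olanzapine pools 2 and 3 and 4150 to 4714 CPM in the controls. The astrocyte sum was thus below all controls in all 3 olanzapine pools. So was the subcortical glutamatergic sum, at 142 CPM in olanzapine pool 1 and 235 to 254 CPM in pools 2 and 3 against 281 to 329 CPM. Hepatocyte genes separated the groups more widely, with 11.6 to 20.9 CPM in the control pools and 203 to 253 CPM in all 3 olanzapine pools. Nuclear long noncoding RNAs were also higher in all 3 olanzapine pools, with 2261 to 2808 CPM in the controls against 5064 to 6139 CPM.

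**Figure D4:**
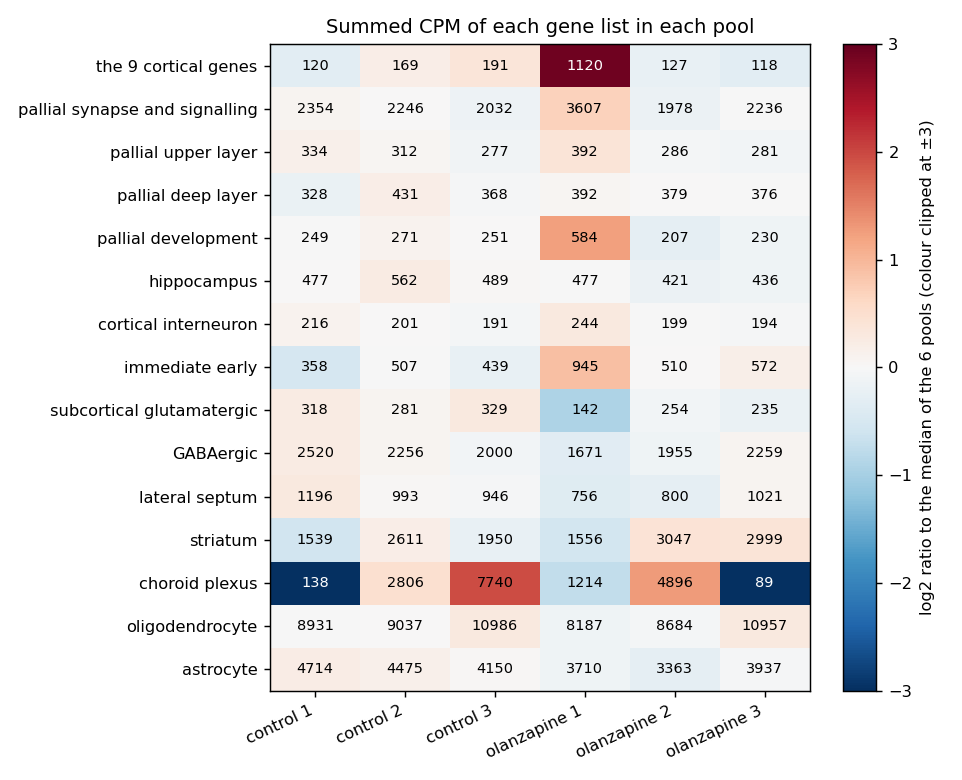
Each cell prints the summed CPM of a gene list (rows) in a pool (columns), and the colour is its log2 ratio to the median of the 6 pools in that row. Olanzapine pool 1 stands out in the top row (1120 CPM against 118 to 191 CPM for the 9 cortical genes) and is low in the subcortical glutamatergic, GABAergic and septal rows.

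Immediate early genes, which neurons induce within minutes of activity, were also high in olanzapine pool 1. All 7 (Fos, Fosb, Junb, Egr1, Arc, Npas4 and Nr4a1) were highest there. The sum was 945 CPM in that pool, 510 to 572 CPM in olanzapine pools 2 and 3 and 358 to 507 CPM in the controls. Olanzapine pools 2 and 3 thus also lay above all controls. Without olanzapine pool 1 all 7 log2 fold changes were above 0, with a median of 0.35, and 1 of 7 was called higher, where 1.76% of all genes tested were. Arc, which is strongly expressed in cortical excitatory neurons, had 11652 counts in that pool and 4107 to 5077 in the others, and its fold change without olanzapine pool 1 was 0.02 on the log2 scale. Npas4 differed from it, at 474, 714 and 491 counts among controls and 1299, 1089 and 1250 under olanzapine, and rose by 1.07 on the log2 scale without olanzapine pool 1 (adjusted p = 0.0197, edgeR's quasi-likelihood test).

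The genes whose pattern was most like that of the 9 were found by the Pearson correlation of log2(CPM + 1) with the mean standardized level of the 9, over 6 pools. The 10 highest among genes with a mean of at least 50 counts were Nxph3, Scube1, Tnks1bp1, Col4a1, Rtn4rl2, C1ql3, Crhbp, Gm40518, Kcnj9 and Ttc7b, with r from 0.998 to 0.989. With 6 pools of which 1 stands far from the rest, such a value says mainly that the gene was high in that pool, and the sizes differed widely. Nxph3 had 1025 counts in olanzapine pool 1 and 174 to 297 in the others, whereas Ttc7b had 6022 against 4547 to 5131. The members themselves had r from 0.829 (Lamp5) to 0.986 (Fezf2), each with its own level part of the mean.

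By size of the excess in olanzapine pool 1, the 10 leading genes outside the list included Dkkl1, Smim43, Rtn4rl2, Slc30a3, Gucy2g, Gm40518, Ptgs2, Sowahb and Adra1d. Dkkl1 had 573 counts against 4 to 22 in the other pools, a ratio of 27.1 to the highest of them. The filter on a mean of at least 50 counts includes olanzapine pool 1. Dkkl1, Gm40518, Smim43 (17 to 41 counts in the other pools) and Gucy2g (16 to 31) passed it only through that pool, and their ratios rest on low counts elsewhere. Rtn4rl2, a Nogo receptor relative at the surface of neurons, had 1348 counts against 43 to 100 and was in both rankings, as was the predicted gene Gm40518 with 266 against 4 to 34. Ptgs2, which encodes cyclooxygenase-2 and is made by cortical excitatory neurons after activity, had 490 against 32 to 66, and Adra1d, an alpha-1 adrenergic receptor, had 892 against 40 to 141.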

How the data were processed

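RNA-seq libraries of 6 LS pools were used, 3 per group. The authors filtered 150 bp read pairs (fastp), mapped them to mm10 (HISAT2, per the labels) and deposited raw counts per gene from HTSeq-count. They also deposited FPKM from the same reads. Strand setting and treatment of multi-mapping reads are not given in the sources used here. Columns were matched to samples by the labels, and 0 columns were left unused.

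The deposited counts went into edgeR 4.0.16 (R 4.3.3) with TMM factors and 1 term, the group. Its quasi-likelihood test was run on all genes passing filterByExpr (minimum count 10, minimum total 15), with Benjamini-Hochberg adjustment. A gene was called at an adjusted p under 0.05, with no limit on the fold change. The standard error is the size of the log2 fold change over the square root of F. DESeq2 1.42.0, limma 3.58.1 on log2(FPKM + 1) or log2(FPKM + 0.1), other scalings and filters, the replicate number as a block and leaving out each pool were alternatives. The scripts were tested on simulated data. The members and lists were chosen with earlier results of these data known. Named genes are the members, the listed markers and the 10 leading genes of each of 2 rankings. The result of 1 listed marker, which is also in a ranking, is not reported here. Ctgf was matched as Ccn2, its symbol in the tables. Positions came from GENCODE (GRCm38) and upstream sequences from RefSeq (GRCm38.p6).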

Additional observations from a re-analysis of the deposited data

How the results depend on the processing

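Over all 6 pools, 0 of the 9 cortical genes were called by edgeR's test as reported and in all 15 alternatives, but DESeq2 gave no adjusted p to Slc17a7, Neurod2 and Emx1, so that it tested 6 of the 9. The number of genes called among all tested was 401 and moved to 1154 with DESeq2, 267 with limma on log2(FPKM + 0.1) and 140 with the replicate number as a block, and ranged from 131 to 508 with 1 pool left out. Leaving out pools, of which only olanzapine pool 1 turned a sign, gave log2 fold changes from -1.38 to 3.04 for Slc17a7, -0.72 to 1.38 for Tbr1, -0.20 to 1.52 for Neurod1, -2.51 to 2.96 for Neurod2, -2.49 to 2.81 for Neurod6, -0.66 to 2.43 for Emx1, -0.42 to 1.74 for Fezf2 and -0.44 to 0.87 for Nrn1. The replicate block also turned Slc17a7 (-0.11), Neurod2 (-0.58) and Neurod6 (-0.83). Same-numbered pools did not deviate together (correlations of -0.00283, 0.0612 and -0.254 for numbers 1 to 3). With 3 pools a group, these values cannot tell whether the numbers pair the pools.

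Without olanzapine pool 1, 0 of the 9 were called, against 2 with DESeq2, 3 with the replicate block and 0 to 3 with 1 further pool left out. Of all genes, 508 were called, against 1341 with DESeq2, 240 with limma on log2(FPKM + 1), 138 without its filter, 136 with log2(FPKM + 0.1), 169 with the block and 72 to 629 with 1 further pool left out. A sign turned only for Emx1 without control pool 3 (range -0.96 to 0.041) and Neurod1 without olanzapine pool 3 (range -0.79 to 0.25). Under the filter on a mean of 50 counts, Neurod1 and Emx1 could not be tested. The median ratio of olanzapine pool 1 was 6.51 to the mean and 4.94 to the highest of the other pools, and 6.09 to 6.91 with 1 of them left out. The causes of these differences were not tested. With 2 or 3 pools a group and at most 52 counts outside olanzapine pool 1 in Emx1 and Neurod1, small differences in these genes were not detectable.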
